A study of Mus musculus with 12 samples.

Results

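The 9 genes described here belong to the NRF2 antioxidant pathway: the 3 regulators Nfe2l2, Keap1 and Sqstm1 and the 6 targets Gclc, Gclm, Txnrd1, Srxn1, Nqo1 and Hmox1. The members are the rows with these 9 gene names in a table of 12975 genes. The RNA came from the small intestinal muscularis, the muscle layer that carries the enteric nervous system, of 6 PLPCreERT2 Rpl22HA mice. In these mice tamoxifen-induced Cre, driven by a promoter active in enteric glia, puts an HA tag on the ribosomal protein Rpl22, so that ribosomes of the cells that express the Cre can be pulled down with anti-HA together with the mRNA they carry. Each homogenate was split between the anti-HA antibody and a mouse IgG1 control, which gave 12 libraries in 4 groups of 3, and the question was how the message load of enteric glia differs early after muscle injury.

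All mice had received 2 intraperitoneal injections of tamoxifen (100 µl at 15 mg/ml) at 10 to 12 weeks of age and were killed 3 to 4 weeks after the first. The groups called T0 are naive animals numbered 1, 2 and 4. The groups called T3 are other animals, numbered 1, 3 and 4, taken 3 h after intestinal manipulation, in which the bowel is exteriorised under ketamine and xylazine anaesthesia and rolled with a cotton applicator. No sham-operated animals are among these groups, so anaesthesia, laparotomy and manipulation cannot be told apart in any T3 against T0 difference. Levels are given in CPM, the count of a gene per 1000000 counts of its library. Totals were 1221788 to 2870591 counts in the HA libraries and 88136 to 1289833 in the IgG libraries, with the 3 IgG T3 libraries at 88136, 92022 and 248522. A level of 3 counts, taken as the floor below which a level is not read, ran from 1.05 CPM (animal 4, HA T0) to 34.0 CPM (animal 1, IgG T3). The summed level of 13 glial markers, all present in the table, was 5846 to 6944 CPM in HA T0 against 871 to 1019.5 CPM in IgG T0, and 11659 to 11917 CPM in HA T3 against 861 to 2097 CPM in IgG T3. No glial marker was at 0 throughout a group, but HA was not specific to glia. The 5 markers of interstitial cells of Cajal summed to 3288 to 4364 CPM in HA T0 against 406 to 501 CPM in IgG T0, and to 1689.5 to 2288 CPM in HA T3 against 390.3 to 1293 CPM in IgG T3. Smooth muscle markers still summed to 13655 to 26193 CPM in the HA libraries.

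NRF2, the product of Nfe2l2, is a transcription factor that is held in the cytoplasm and sent to degradation by KEAP1. Oxidants and electrophiles modify cysteines of KEAP1, and p62, the product of Sqstm1, can sequester it, so that NRF2 escapes, enters the nucleus, pairs with a small MAF protein and binds antioxidant response elements near its target genes. The targets supply glutathione and thioredoxin, reduce quinones and break down haem, and BACH1 competes for the same elements. NRF2 is regulated largely through protein stability, which mRNA counts do not measure.

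To show which of the genes carry the sequence that NRF2 binds close to their starts, the reference promoters (RefSeq, GRCm38.p6, 250 bases before to 50 bases after the transcript start) were searched on both strands for the element's core, TGACNNNGC, and for the AP-1 site, TGAGTCA or TGACTCA. Promoters were found for 7 of the 9 genes, which excludes Hmox1 and Gclc, and the core letters lay in those of 4: Srxn1, Txnrd1, Gclm and Nfe2l2. Of 32851 promoters of the same length, counted singly and not by gene, 12.4% hold the core, 5.20% the AP-1 letters and 0.947% both. The 7 genes had 9 such promoters, and 1 promoter of each of the 4 genes held the core. Srxn1 alone among the 7 had both, with AP-1 letters at bases -102 and -45 from the start and core letters at base 29 after it, none of them overlapping. At -45 the letters run on as TGAGTCAGC, with G where the searched core has C. Only the core as written was searched for, so sites that differ from it are not marked. Of the 3 Txnrd1 promoters in the table, only the one printed had a match. In the runs below, written 5′ to 3′ on the gene's strand, capitals mark these matches, and the set pairs genes that rose after manipulation (Srxn1, Txnrd1) with genes that did not pass the test (Gclm, Nfe2l2). Srxn1 lies at chr2:152105274-152105573 (+), Txnrd1 at chr10:82858956-82859255 (+), Gclm at chr3:122245307-122245606 (+) and Nfe2l2 at chr2:75704614-75704913 (-). A match is a description of letters and does not show that a factor was bound.
Srxn1: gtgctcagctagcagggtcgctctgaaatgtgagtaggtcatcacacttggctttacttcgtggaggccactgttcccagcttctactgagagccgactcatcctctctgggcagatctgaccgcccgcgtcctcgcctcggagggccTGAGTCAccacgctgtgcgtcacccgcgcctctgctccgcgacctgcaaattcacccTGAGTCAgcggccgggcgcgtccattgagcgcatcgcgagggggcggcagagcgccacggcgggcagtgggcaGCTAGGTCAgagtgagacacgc
Txnrd1: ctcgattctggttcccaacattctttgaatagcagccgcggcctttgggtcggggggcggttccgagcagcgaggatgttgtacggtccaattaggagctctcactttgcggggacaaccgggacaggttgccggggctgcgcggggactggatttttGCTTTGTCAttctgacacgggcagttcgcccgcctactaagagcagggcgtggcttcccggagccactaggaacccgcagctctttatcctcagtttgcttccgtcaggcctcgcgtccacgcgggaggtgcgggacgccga
Gclm: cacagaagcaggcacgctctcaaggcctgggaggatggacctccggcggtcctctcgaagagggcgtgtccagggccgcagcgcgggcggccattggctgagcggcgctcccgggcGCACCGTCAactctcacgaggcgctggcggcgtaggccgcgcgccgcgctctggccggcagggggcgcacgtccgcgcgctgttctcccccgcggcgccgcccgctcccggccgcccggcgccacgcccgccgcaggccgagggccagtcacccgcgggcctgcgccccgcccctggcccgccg
Nfe2l2: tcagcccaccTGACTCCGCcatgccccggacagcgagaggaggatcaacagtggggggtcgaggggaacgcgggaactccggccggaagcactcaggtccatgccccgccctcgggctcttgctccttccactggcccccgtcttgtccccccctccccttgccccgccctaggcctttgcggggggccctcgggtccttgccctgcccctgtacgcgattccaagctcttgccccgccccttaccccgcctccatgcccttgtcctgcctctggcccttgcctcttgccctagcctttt

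In the HA libraries, the messages of 4 of the 8 genes tested were called higher 3 h after manipulation and none was called lower. Srxn1, which encodes the sulfiredoxin that repairs overoxidised peroxiredoxins, rose 32.0-fold; Hmox1, the inducible haem oxygenase, rose 22.0-fold; Txnrd1, the cytosolic thioredoxin reductase, rose 4.37-fold; and Sqstm1 rose 1.89-fold. The edgeR quasi-likelihood test over all 9441 genes that passed the count filter was used, with a Benjamini-Hochberg adjusted p under 0.05 as the threshold. By this rule 18.7% of all genes tested were higher at T3 and 15.1% were lower. Nqo1 did not pass the filter, and Gclc, Gclm, Nfe2l2 and Keap1 were tested and did not pass the threshold. Hmox1 passed the filter only through the T3 libraries, in which it was high. The HA libraries of T0 and T3 did not overlap in CPM for 6 of the 8 genes tested, against 50.8% of all genes tested. In whole-tissue pull-downs like these, fewer cells of a type and less RNA per cell cannot be told apart.

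**Figure D1:**
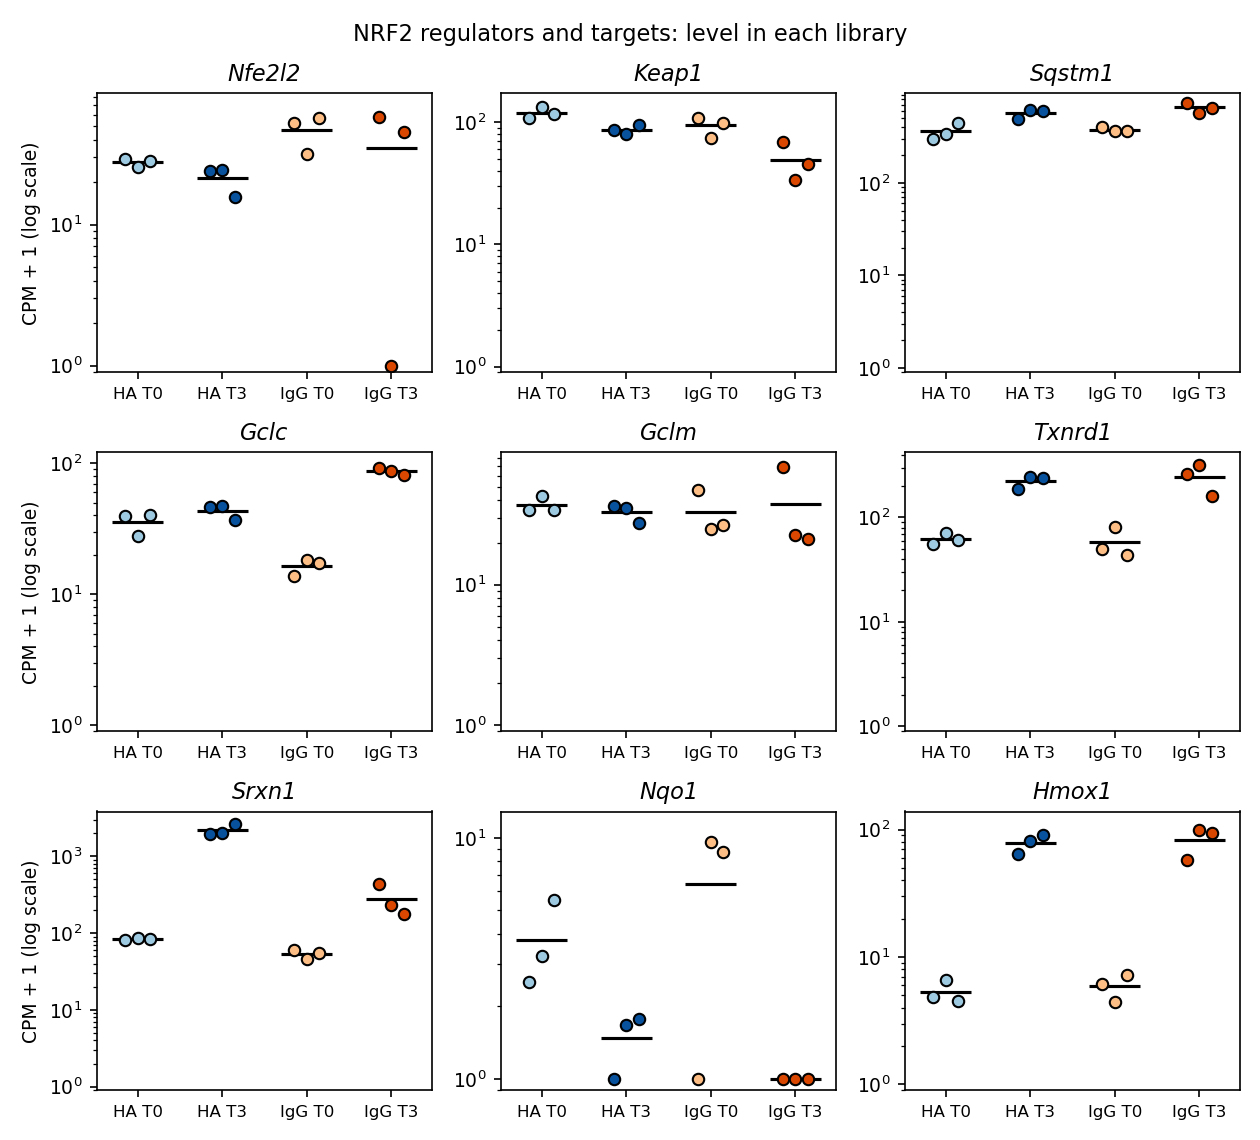
Level of each of the 9 genes in each library, as CPM plus 1 on a log axis, for the 4 groups of antibody and time; a point is 1 library and the bar is the group mean. Srxn1 sits at 1956 to 2607 CPM in HA T3 and at 177 to 431 CPM in IgG T3, whereas Hmox1 and Txnrd1 overlap between HA T3 and IgG T3.

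Among the regulators, Nfe2l2 (chr2:75675513-75704641, minus strand, mm10) was found at 28.0, 24.6 and 27.2 CPM in the 3 HA T0 libraries and at 22.9, 23.4 and 14.8 CPM in HA T3. All 3 T3 values lay below all 3 T0 values in CPM, but the fitted difference, scaled by trimmed mean of M-values (TMM), was -0.12 on the log2 scale (95% interval -0.68 to 0.43, adjusted p = 0.755). In the IgG libraries the same message was at 51.5, 30.9 and 55.8 CPM at T0 and at 56.7, 0 and 44.3 CPM at T3, where the library at 0 allows up to 32.6 CPM. The mRNA of NRF2 itself was therefore not called changed by manipulation in either pull-down, and the IgG T3 values were too thin to compare. At T0 Nfe2l2 was lower in HA than in IgG by -0.83 (SE 0.28, adjusted p = 0.0384), with no overlap between the groups. That call was lost in 9 of 13 alternative analyses, over which the adjusted p ran from 0.0152 to 0.22.

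Keap1 (chr9:21229730-21239361, minus strand), the adaptor that presents NRF2 to a ubiquitin ligase, was at 106.7, 133.0 and 116.4 CPM in HA T0 and at 85.1, 78.9 and 93.4 CPM in HA T3. The 2 groups did not overlap, with every T3 library lower. The fitted difference was -0.20 (95% interval -0.58 to 0.17, adjusted p = 0.411). Scaled by library totals instead of TMM, the difference was -0.47 with an adjusted p of 0.0488, and the median of all genes tested moved from -0.02 to -0.28. That scaling called 1208 genes higher and 2641 lower (31.4% higher), against 1765 and 1422 (55.4% higher) with TMM, and left Srxn1, Hmox1, Txnrd1 and Sqstm1 called higher. In IgG, Keap1 was at 108.2, 73.7 and 98.5 CPM at T0 and at 68.1, 32.6 and 44.3 CPM at T3, again without overlap. These T3 values rest on 6, 3 and 11 counts, and the one of 3 counts lies at the floor. The difference of -0.99 had an adjusted p of 0.194.

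Sqstm1 (chr11:50199366-50210827, minus strand) encodes p62, an autophagy adaptor that is both a partner of KEAP1 and a target of NRF2. It was at 299.1, 340.8 and 448.0 CPM in HA T0 and at 486.2, 617.2 and 600.3 CPM in HA T3, so that the lowest T3 library stood above the highest T0 library. The rise was 0.92 on the log2 scale (SE 0.18, adjusted p = 0.000539). In IgG it was at 404.4, 360.0 and 363.6 CPM at T0 and at 737.5, 575.9 and 647.8 CPM at T3, a difference of 0.77 that did not pass the threshold (adjusted p = 0.114) although the libraries did not overlap. The gene Mrnip on the other strand has an exon within the counted 3′ end of Sqstm1, and since the counting is not stated to use strand, reads of the 2 genes may not be separable.

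Neither subunit of the glutathione-synthesis enzyme glutamate-cysteine ligase was called changed in HA, while 1 of them rose in IgG. Gclc (chr9:77754535-77794485, plus strand), the catalytic subunit of glutamate-cysteine ligase, was at 38.8, 26.8 and 39.0 CPM in HA T0 and at 45.0, 46.1 and 35.8 CPM in HA T3. The groups overlapped, and the difference of 0.53 (95% interval 0.05 to 1.01) had an adjusted p of 0.0805. In IgG the same message was at 12.9, 17.1 and 16.3 CPM at T0 and at 90.8, 86.9 and 80.5 CPM at T3, a 5.27-fold rise (SE 0.41 on the log2 scale, adjusted p = 0.00217) that rests on 8, 8 and 20 counts in the T3 libraries. No IgG T0 library reached the count filter for Gclc (31.4 CPM in this comparison), so the gene entered the test through the T3 libraries in which it was high. At T0 the Gclc level was thus above IgG in the HA libraries, by 1.12 (SE 0.31, adjusted p = 0.014), and lower in all 3 HA libraries than in any IgG library at T3, where the difference of -0.92 missed the threshold (adjusted p = 0.0667). The T0 call was lost without HA T0 animal 1 (adjusted p = 0.0656) or without animal 4 (adjusted p = 0.053). The test of whether the change with time differed between antibodies, the interaction, gave -1.79 for Gclc (SE 0.46) with an unadjusted p of 0.000655 and an adjusted p of 0.102; DESeq2 put the adjusted p at 0.00757.

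Gclm (chr3:122245557-122270732, plus strand), the modifier subunit that raises the efficiency of the same ligase, was between 33.0 and 41.9 CPM in HA T0 and between 26.5 and 35.2 CPM in HA T3. Its difference was 0.09 (95% interval -0.39 to 0.58, adjusted p = 0.784), and the groups overlapped. In IgG T3 it rested on 2 to 6 counts a library, and it was not tested there. The core letters in its promoter, printed above, are thus shared by a gene whose HA message was not called changed.

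In the thioredoxin branch both genes rose. Txnrd1 (chr10:82833951-82897712, plus strand) was at 54.5, 69.8 and 59.9 CPM in HA T0 and at 185.8, 245.4 and 235.9 CPM in HA T3, a rise of 2.13 (SE 0.19, adjusted p = 3.46e-08). In IgG it was at 48.9, 80.6 and 42.6 CPM at T0 and at 261.0, 315.1 and 161.0 CPM at T3, a rise of 2.04 (SE 0.36, adjusted p = 0.00313). The T3 libraries stood above the T0 libraries in both pull-downs. HA and IgG overlapped at either time, with HA against IgG differences of 0.09 at T0 (95% interval -0.49 to 0.67) and 0.02 at T3 (95% interval -0.57 to 0.62).

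Srxn1 (chr2:152105516-152111376, plus strand) was the member with the highest rise in HA. It was at 79.9, 85.5 and 81.5 CPM in HA T0, a mean of 82.3 ± 2.89 (SD, n = 3), and at 1956, 2007 and 2607 CPM in HA T3, a mean of 2190.3 ± 362 (SD, n = 3). The difference was 5.00 on the log2 scale (SE 0.21, adjusted p = 4.94e-13), the 38th highest of the 9441 genes tested, and it stayed between 4.73 and 5.10 over 13 alternatives. In IgG it was at 59.2, 44.6 and 54.3 CPM at T0 and at 431.2, 228.2 and 177.0 CPM at T3, a rise of 2.32 (SE 0.37, adjusted p = 0.00142). The IgG T3 values rest on 38, 21 and 44 counts, and all 3 stood above all 3 IgG T0 values.

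Srxn1 was also the member whose rise differed between the antibodies. The interaction was 2.79 (SE 0.39, adjusted p = 0.000716), meaning a 6.91-fold larger rise in HA than in IgG, and it was past the threshold in all 18 alternatives tried, from 2.39 to 3.16. At T0 the HA libraries stood above the IgG libraries by 0.62 (adjusted p = 0.0522; 0.0395 with the animal as a block), and the difference was past the threshold in 5 of 13 alternatives (adjusted p from 0.0349 to 0.139). At T3 the difference was 3.12 (SE 0.33, adjusted p = 6.83e-06), again with no overlap. The summed glial markers in HA were 1.81-fold higher in mean CPM at T3 than at T0, and Cryab (1281 to 5845 CPM) and Gfap (118.3 to 1715 CPM) carried this. Without these 2 the mean sum went from 5128 to 4268 CPM, and 7 of the 13 markers had a lower mean at T3, among them Gpr37l1 (1723 to 785 CPM) and Sox10 (461 to 317 CPM). The part of the glial share in the Srxn1 difference was not tested.

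**Figure D2:**
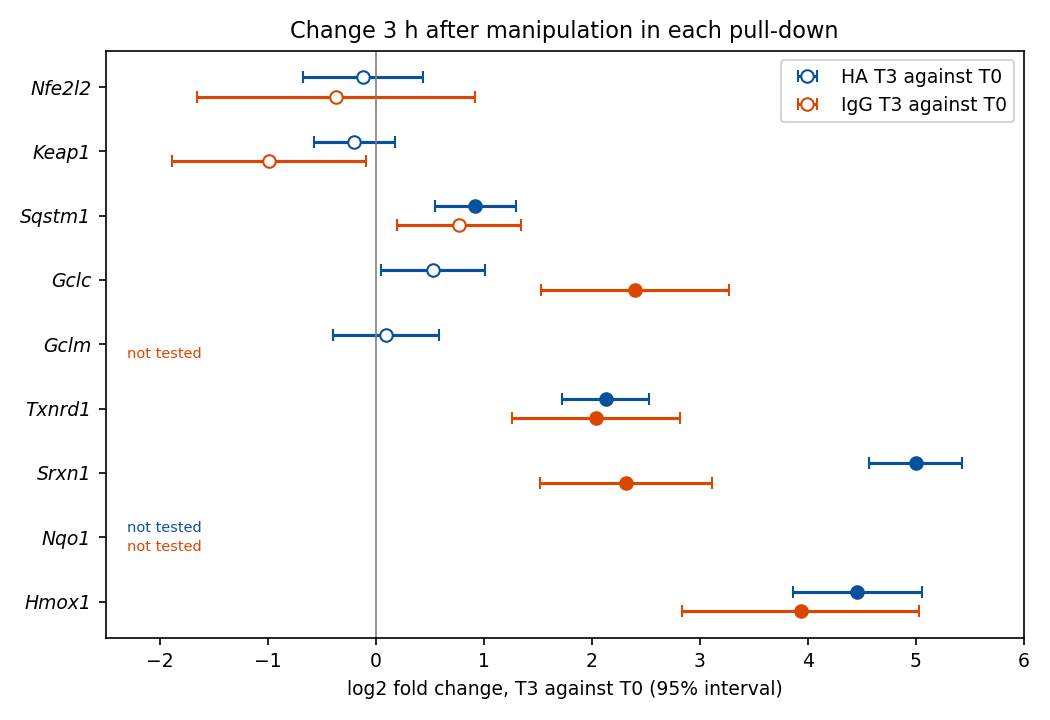
Fitted log2 fold change of each gene between T3 and T0 in the HA libraries (blue) and in the IgG libraries (orange), with 95% intervals; filled points are past an adjusted p of 0.05. The 2 intervals are apart for Srxn1 (4.57 to 5.43 in HA, 1.52 to 3.12 in IgG). They are apart in the other direction for Gclc (0.05 to 1.01 in HA, 1.53 to 3.27 in IgG). The edgeR interaction test called Srxn1 (adjusted p = 0.000716) and did not call Gclc (adjusted p = 0.102). In IgG, Gclc entered the test only through the T3 libraries.

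Because HA and IgG came from the same homogenate, each animal gives its own ratio of IgG to HA. For the 13 glial markers this was 12.8%, 15.6% and 14.7% in the T0 animals 1, 2 and 4 and 17.4%, 17.6% and 7.39% in the T3 animals 1, 3 and 4. Cryab alone moved the first of these: without it the ratio was 4.70%, 6.47% and 4.02% at T0 and 19.5%, 16.9% and 4.44% at T3. For Srxn1 it was 74.2%, 52.1% and 66.6% at T0 and 22.0%, 11.4% and 6.79% at T3. The Srxn1 ratio at T0 was thus above that of the glial markers in every animal, with or without Cryab. At T3 it was above the glial ratio in animal 1 and below it in animal 3, with or without Cryab. In animal 4, which was lowest for both, it was below the ratio of the 13 markers and above that of the 12 without Cryab. Without Cryab and Gfap the glial ratio at T3 was 24.0%, 19.9% and 4.10% in animals 1, 3 and 4. The Srxn1 ratio then lay below it in animals 1 and 3 and above it in animal 4. The order in animals 1 and 4 thus depended on the marker set. Gclc moved the other way, from 33.2%, 63.9% and 41.7% at T0 to 201.6%, 188.4% and 224.7% at T3. Hmox1 at T3 was at 90.0%, 121.9% and 104.3%, near equal levels in the 2 pull-downs.

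**Figure D3:**
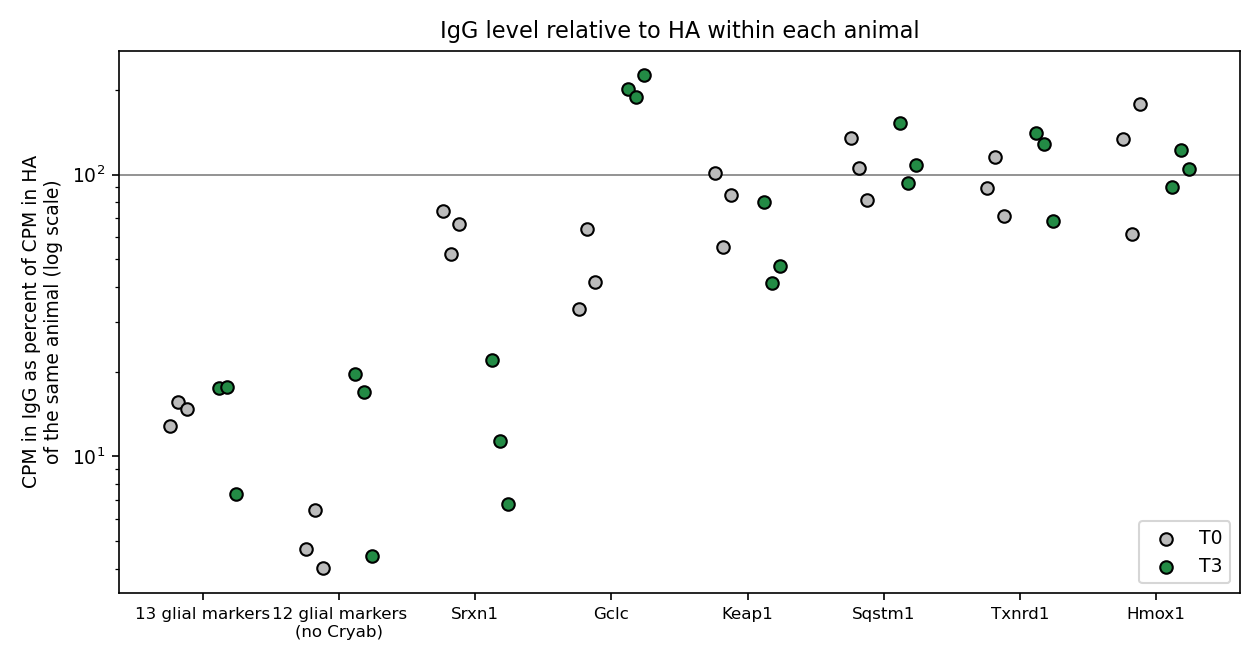
CPM in the IgG library as a percentage of CPM in the HA library of the same animal, on a log axis, for the sum of 13 glial markers, the sum of 12 without Cryab and 6 of the 9 genes; a point is 1 animal and the line marks equal levels. Srxn1 falls from 52.1% to 74.2% at T0 to 6.79% to 22.0% at T3, where the 13 glial markers were at 7.39% to 17.6% and the 12 at 4.44% to 19.5%, while Gclc rises above 100% in all 3 T3 animals.

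Nqo1 (chr8:107388225-107403206, minus strand), the quinone reductase often used as a readout of NRF2, was scarcely counted. It had 4, 4 and 13 counts in HA T0 (1.54, 2.24 and 4.53 CPM) and 0, 1 and 1 counts in HA T3. The IgG T3 libraries held no count, which allows up to 12.1 to 34.0 CPM, and IgG T0 held 0, 5 and 10 counts. The HA T3 values all lay below HA T0, but at or under the floor of 3 counts no fold is given. Nqo1 did not enter the main test of any comparison. Alternatives with looser filters took it in, and their values for Nqo1 are not given.

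Hmox1 (chr8:75093621-75100589, plus strand), whose product degrades haem to biliverdin, iron and carbon monoxide, had 10 counts in each of the HA T0 libraries (3.84, 5.59 and 3.48 CPM) and 77, 120 and 114 counts in HA T3 (63.0, 80.2 and 88.8 CPM). The rise was 4.46 (SE 0.29, adjusted p = 2.07e-10). In IgG it was at 5.15, 3.43 and 6.20 CPM at T0, from 2, 2 and 8 counts, and at 56.7, 97.8 and 92.5 CPM at T3, a rise of 3.94 (SE 0.51, adjusted p = 0.000268). Every T3 library stood above every T0 library in either pull-down, but no T0 library reached the count filter (6.09 CPM in HA, 31.4 CPM in IgG), so that in both pull-downs the gene entered the test through the T3 libraries in which it was high. HA and IgG overlapped at T3, with a difference of -0.06 (95% interval -0.76 to 0.65), and the interaction was 0.54 (95% interval -0.70 to 1.78, adjusted p = 0.81). Resident and recruited phagocytes are known to express Hmox1. The 12 macrophage markers, all in the table, summed to 439 to 788 CPM in HA T0, 209.5 to 355 CPM in HA T3, 747 to 1148 CPM in IgG T0 and 663 to 825 CPM in IgG T3. Of 11 neutrophil and monocyte markers 7 were in the table, summing to 33.8 to 125.2 CPM in HA T0, 52.9 to 146.5 CPM in HA T3, 61.8 to 72.0 CPM in IgG T0, where S100a8 and S100a9 were at 0, and 116.7 to 283.7 CPM in IgG T3. Within that sum, mean levels in HA went from 0.69 CPM at T0 to 44.5 CPM at T3 for S100a9 and from 0.13 to 7.52 CPM for S100a8, both neutrophil genes. The HA T3 libraries spread widely, from 16.7 to 98.2 CPM for S100a9 and from 1 to 22 counts for S100a8. Hp also had a higher mean in HA T3 (8.62 to 13.9 CPM). Lower means were found for Mmp9 (68.8 to 16.1 CPM), Plac8 (8.62 to 2.38 CPM), Ccr2 (2.79 to 1.52 CPM) and Itgam (2.97 to 2.59 CPM). What share of the Hmox1 signal these cells held was not tested.

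Counted over the other comparisons, 4 of the 7 genes tested in IgG were higher at T3 (Srxn1, Hmox1, Gclc and Txnrd1) and none was lower, where 4.43% of 5219 genes were called higher and 1.03% lower. Hmox1 and Gclc entered that test only through the T3 libraries, in which they were high, so their calls add little to this count. In HA against IgG at T0, 1 of the 7 tested was higher (Gclc) and 1 lower (Nfe2l2), beside 16.0% and 14.4% of 9823 genes. In HA against IgG at T3, Srxn1 was the 1 gene of 8 called higher and none was called lower, beside 11.8% and 10.2% of 7200 genes. In the interaction 1 of 8 was called, beside 0.330% of 10314 genes. Of the 34 genes called there, 31 had a change with time that was higher in HA than in IgG; scaling by library totals left 8, of which 6 were so, and moved the median interaction from 0.18 to -0.18, while the animal block gave 158. HA and IgG libraries come from the same animals, and the comparisons share libraries with each other, so these counts are not independent.

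Ordered by group mean, Srxn1 fell from HA T3 to IgG T3, HA T0 and IgG T0 with no overlap between neighbours in that order. Hmox1, Txnrd1 and Sqstm1 each had their 2 T3 groups overlapping at the top and their 2 T0 groups overlapping at the bottom, with no overlap between the T3 and T0 neighbours. Gclc was highest in IgG T3 and lowest in IgG T0, with the HA groups overlapping between them. For Gclm every neighbouring pair of groups overlapped.

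The pattern of Srxn1 over the 12 libraries was most like that of Gdnf (Pearson r = 0.99), Gdf15 (0.98), Vasn (0.98), Cltb (0.97) and Oaf (0.97), among 10313 other genes and on the log2(CPM + 1) scale. Gdnf encodes the neurotrophic factor GDNF, and rose in mean level from 15.1 CPM in HA T0 to 282.0 CPM in HA T3 with 58.0 CPM in IgG T3. The secreted stress-response factor Gdf15 stood at 4.36 CPM in HA T0, 259.9 CPM in HA T3 and 17.5 CPM in IgG T3. Like Srxn1, both had a higher mean in HA T3 than in IgG T3. Hmox1 was most like Irf1, Ppp1r15a, Junb, Pvr and Gm13889 (each 0.98), and its r was 0.93 with Txnrd1 and 0.81 with Srxn1. Junb, an AP-1 subunit, had mean levels of 29.2 CPM in HA T0, 1289 CPM in HA T3, 33.2 CPM in IgG T0 and 1263 CPM in IgG T3, so that it was as high in IgG as in HA. The libraries of a group share their condition and, in part, their depth, and these coefficients are descriptions without a test.

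Of 13 other regulators and partners of NRF2, 12 were tested in HA at T3 against T0, and 4 rose and none fell, beside 18.7% and 15.1% of all genes tested, with a median of 0.43 on the log2 scale against -0.02 over all genes. The 4 were the small MAF partners Maff (5.69, adjusted p = 1.67e-12), Mafk (2.60, adjusted p = 2.05e-09) and Mafg (2.21, adjusted p = 3.56e-05) and the competitor Bach1 (4.19, adjusted p = 3.57e-08). Maff was at 5.38, 4.47 and 4.88 CPM in HA T0 and at 177.6, 278.8 and 186.1 CPM in HA T3. Bach1 was at 3.84, 2.79 and 1.74 CPM in HA T0, from 5 to 10 counts, and at 63.8, 33.4 and 32.7 CPM in HA T3. Neither gene reached the count filter of 6.09 CPM in any HA T0 library. Both were therefore tested through the T3 libraries in which they were high. The same held for Bach2 (1.04, adjusted p = 0.056), which was not called. The calls of Maff and Bach1 thus add little to the count of 4, and the median of 0.43 includes all 3 of these genes. Mafk and Mafg reached the filter in all 3 HA T0 libraries. Nfe2l1, the close relative of Nfe2l2, had a difference of 0.29 (adjusted p = 0.235). In IgG only Mafk of the 6 tested was higher (2.33, adjusted p = 0.00252), beside 4.43% of all genes tested in IgG.

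Of 17 other genes of glutathione and thioredoxin metabolism tested in HA, only the glutathione transferase Gstp1 was higher (0.83, adjusted p = 0.0337), and 4 were lower: the transferases Mgst1 (-1.42, adjusted p = 0.00309) and Gstm1 (-0.67, adjusted p = 0.00857) and the exporters Abcc4 (-0.98, adjusted p = 0.0232) and Abcc2 (-1.07, adjusted p = 0.0337). Over all genes tested 18.7% were higher and 15.1% lower, and the median of the 17 was -0.0019. With scaling by library totals the Gstp1 call was lost, and 5 of the 17 were lower. Mgst1 was also lower in IgG (-2.75, adjusted p = 0.00273), the 1 call among 12 tested there, beside 4.43% higher and 1.03% lower of all genes tested in IgG.

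Of 13 genes of NADPH supply and of carbonyl or xenobiotic metabolism tested, 3 were higher and 1 lower, which is near the 18.7% and 15.1% of all genes, with a median of -0.29. Osgin1, an oxidative stress-induced growth inhibitor, rose by 1.87 (adjusted p = 0.000807), from 7.68, 4.47 and 4.88 CPM at T0 to 26.2, 15.4 and 11.7 CPM at T3, without overlap. Taldo1 and Pgd, enzymes of the pentose phosphate pathway, rose by 0.67 (adjusted p = 0.00438) and 0.53 (adjusted p = 0.0258), and the epoxide hydrolase Ephx1 fell by 0.67 (adjusted p = 0.0288). Totals as the scale left 1 of the 13 higher and 5 lower. In IgG none of the 9 tested passed the threshold, beside 4.43% higher and 1.03% lower of all 5219 genes. Of these 9, 1 had an unadjusted p under 0.05, beside 1103 of the 5219.

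Of 10 genes of haem and iron handling tested, 2 were higher, namely the ferritin light chain Ftl1 (0.84, adjusted p = 0.00282) and the transferrin receptor Tfrc (1.64, adjusted p = 0.00863), and 2 were lower, namely the haem transporter Slc48a1 (-0.60, adjusted p = 0.0116) and the constitutive haem oxygenase Hmox2 (-0.62, adjusted p = 0.0243). Hmox2 thus fell where Hmox1 rose. The ferritin heavy chain Fth1 was at -0.91 in HA (adjusted p = 0.0766) and fell in IgG by 1.45 (adjusted p = 0.0258). These counts are near the 18.7% higher and 15.1% lower of all genes. The median of the 10 was 0.06, and with totals as the scale 2 were higher and 4 lower.

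Of 16 antioxidant enzymes that were not listed as NRF2 targets, none was higher in HA at T3 and 6 were lower, beside 18.7% and 15.1% of all genes, with a median of -0.32. They were the selenoprotein P gene, named Sepp1 in the table (-1.17, adjusted p = 0.000127), the peroxiredoxins Prdx3 (-1.06, adjusted p = 0.00694) and Prdx4 (-0.70, adjusted p = 0.00843), the extracellular superoxide dismutase Sod3 (-1.04, adjusted p = 0.0077), and the glutathione peroxidase family members Gpx8 (-0.71, adjusted p = 0.00807) and Gpx7 (-0.73, adjusted p = 0.0282). Scaled by library totals, 10 of the 16 were lower. In IgG none of the 13 tested passed the threshold in edgeR, beside 4.43% higher and 1.03% lower of all 5219 genes. Of these 13, 3 had an unadjusted p under 0.05, beside 1103 of the 5219. Fibroblast markers fell in HA from 1057 to 1392 CPM at T0 to 312 to 546 CPM at T3. Mesothelial markers fell from 484 to 547 CPM to 53.5 to 56.1 CPM. Mean sums in HA were also lower at T3 for macrophages, interstitial cells of Cajal, smooth muscle, epithelium, and neutrophils and monocytes. They were higher for glia, enteric neurons and endothelium. The part of these cell types in the lower levels of the enzymes was not tested.

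**Figure D4:**
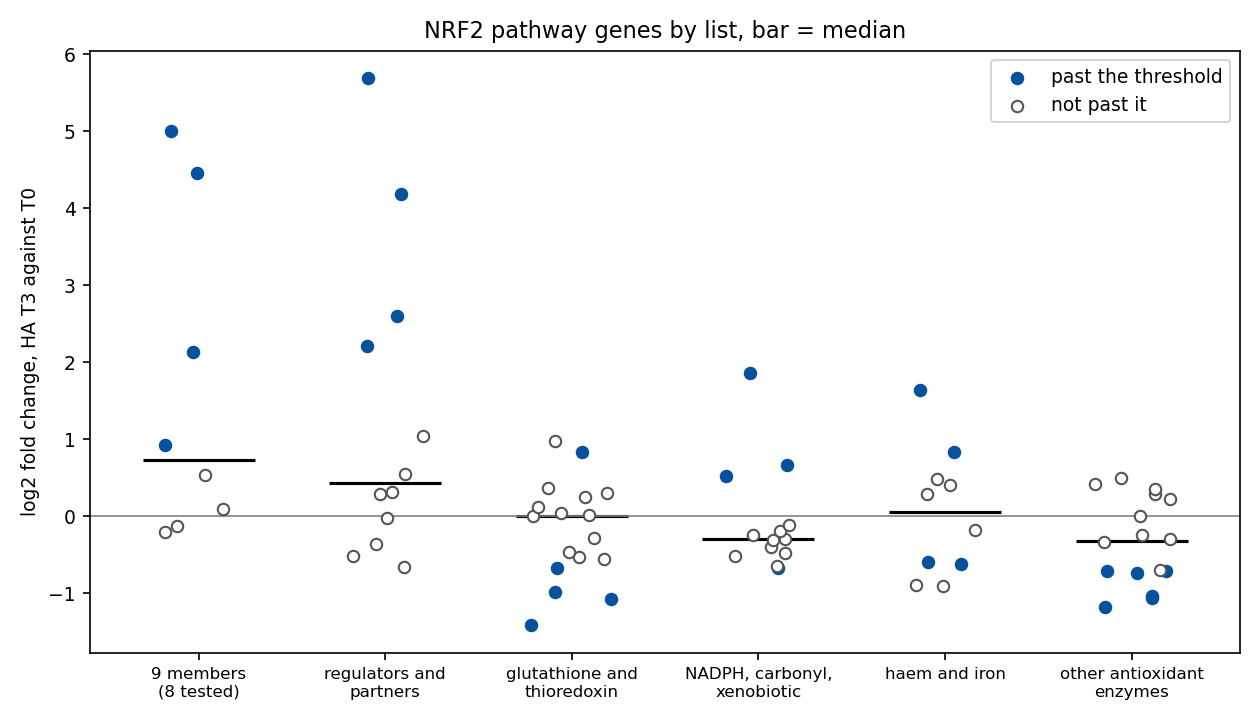
Fitted log2 fold change in HA between T3 and T0 for the 8 members tested and for the genes of 5 further lists; a point is a gene, filled where past an adjusted p of 0.05, and the bar is the list's median. Srxn1 (5.00), Hmox1 (4.46), Maff (5.69) and Bach1 (4.19) stand above the rest, and none of the 16 other antioxidant enzymes is a filled point above 0.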

How the data were processed

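Per the labels and the study's methods, RNA bound to HA-tagged ribosomes or to control IgG1 was made into MARS-seq libraries, a 3′ method with unique molecular identifiers. The submitters' processing notes name cutadapt, STAR 2.4.2a, HTSeq, DESeq2 1.26.0 and mm10, and the methods describe counting of genes within 1000 bases upstream to 100 bases downstream of their 3′ ends. The deposited values are raw counts per gene, and 0 of them differed between the series table and the single-sample files. The authors kept genes with at least 5 reads in a sample; 189 of the 12975 genes have no count of 5 in these 12 libraries, which are analysed here.

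Counts were divided by library totals for CPM and tested with edgeR 4.0.16 (quasi-likelihood F-test, robust, TMM, filterByExpr, Benjamini-Hochberg) in R 4.3.3, on the 2 groups of each comparison, and on all 12 libraries for the interaction of antibody and time. DESeq2 1.42.0, other scalings and filters, blocks and leaving out each library were alternatives. The method was tested on simulated data. The members and the gene lists were chosen with earlier results of these data known. All 9 members are named, with the genes of each list past the threshold in HA at T3 against T0 (at most 6 a direction) and the 5 genes most like Srxn1 and Hmox1. List symbols Flvcr1, Selenow and Selenop were matched as Mfsd7b, Sepw1 and Sepp1; list genes without a row were not analysed here. Of 7 red blood cell markers only Alas2 had a row. 1 listed marker of glia is not reported here.

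HA and IgG of an animal come from 1 homogenate, so the animal pairs them. Their deviations from the group means over 1331 genes correlated at 0.25 to 0.45 within animals. Correlations between animals were negative, which follows largely from subtracting the group means. Animals of T0 and T3 with the same number are different mice. Libraries of a group are separate mice, and no 2 libraries were within sampling noise of each other. Floors cover counting error only. The SEs and intervals of the log2 differences come from the edgeR quasi-likelihood fits, which also include the spread between libraries of a group. Gene positions are from GENCODE M21 (mm10).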

Additional observations from a re-analysis of the deposited data

Results flagged for a closer look

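The change of Srxn1 between T0 and T3 differed between the HA and the IgG libraries in the test of that difference itself: the interaction was 2.79 on the log2 scale (SE 0.39, adjusted p = 0.000716 in edgeR's quasi-likelihood test over 10314 genes), with a rise of 5.00 in HA and 2.32 in IgG. All 3 HA T3 libraries stood above all 3 IgG T3 libraries. The IgG T3 values rest on 21 to 44 counts.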

How the results depend on the processing

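The calls of Srxn1, Hmox1, Txnrd1 and Sqstm1 in HA and of Srxn1, Hmox1, Gclc and Txnrd1 in IgG at T3 against T0 held in all 13 alternatives of each, as did Srxn1 in HA against IgG at T3, and the Srxn1 interaction held in all 18. The number of members called in HA against IgG at T0 was 2, 3 with total-count scaling or the animal block, and 1 with DESeq2 or with a fit of all 12 libraries. Srxn1 was called there in 5 of 13 alternatives, and with no filter or the 5-count minimum it was called in place of Nfe2l2. Leaving out 1 library gave 0 to 2, with 0 without HA T0 animal 1 or 4 and 1 without HA T0 animal 2 or IgG T0 animal 4. At T3 it was 1, and 2 with no filter, with a minimum of 5 counts in 1 library, with all 12 libraries or without IgG T3 animal 1 (leave-one-out range 1 to 2), Keap1 being the added gene. The interaction went from 1 to 2 with DESeq2, with Gclc added. With the animal as a replicate block, Srxn1 at T0 passed the threshold (0.61, adjusted p = 0.0395) and the Gclc interaction was -1.81 (adjusted p = 0.0601); the block, and one on the label number across times, changed no other member's call. That number is shared by different mice, whose deviations correlated at 0.01 to 0.30.

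Values that changed sign were all uncalled, and the causes were not tested. With total-count scaling, Gclm was -0.17 in HA over time, Txnrd1 -0.076 in HA against IgG at T3, and the interactions were -0.23 for Gclm, -0.19 for Txnrd1, -0.15 for Sqstm1 and -0.025 for Nfe2l2. With relative log expression scaling, Txnrd1 at T3 was -0.0039 and the Gclm interaction -0.032. In HA against IgG at T3, Hmox1 was 0.18 with no filter, 0.12 with the 5-count minimum, 0.015 with DESeq2, 0.22 with all 12 libraries and 0.0067 with the animal block. Sqstm1 there was 0.14 with no filter, 0.082 with the 5-count minimum and 0.17 with all 12 libraries, and with no filter it was 0.0060 at T0. Leaving out 1 library gave ranges of -0.014 to 0.21 for Gclm and -0.23 to 0.065 for Nfe2l2 in HA over time, and -0.85 to 0.059 for Nfe2l2 in IgG. At T0, HA against IgG ranged from -0.22 to 0.019 for Sqstm1 and from -0.11 to 0.42 for Txnrd1. At T3 it ranged from -0.21 to 0.78 for Gclm, -0.18 to 0.27 for Hmox1, -0.25 to 0.060 for Sqstm1 and -0.13 to 0.33 for Txnrd1. The interactions ranged from -0.32 to 0.68 for Gclm, -0.14 to 0.77 for Nfe2l2 and -0.16 to 0.36 for Txnrd1.

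Over all genes, the IgG comparison over time called 285, and 162 to 705 over the alternatives. The interaction called 34, and 5 to 158. HA against IgG at T3 called 1578, and 849 to 1019 without 1 of the 3 HA T3 libraries, or 958 without IgG T3 animal 4. Total-count scaling raised the lower calls among other antioxidant enzymes from 6 to 10. The shallow IgG T3 libraries limit what can be read for Nqo1, Gclm, Nfe2l2 and Keap1. Leaving Cryab out of the glial markers, an alternative chosen after seeing the data, moved the T3 to T0 ratio of their mean sum in HA from 1.81 to 1.14 (0.83 without Gfap too).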
